A study of Mus musculus with 12 samples.

Results

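The GTPases of the immunity-associated protein (GIMAP) family were followed through an NPM-ALK lymphoma model. The members were the mouse genes Gimap1, Gimap3, Gimap4, Gimap5, Gimap6, Gimap7, Gimap8 and Gimap9, taken by symbol as 8 of the 50600 gene IDs in the deposited count tables. Reads were counted on 6 of them, and these 6 were also the members that passed the filter on low counts, among 16052 genes tested. RNA came from 12 mice in 4 groups of 3. Ctrl thymocytes were from mice labelled DNMT1 fl/fl, with the loxP-flanked gene and no Cre, at 20 to 25 weeks. KO thymocytes were from mice labelled DNMT1 fl/fl CD4-CRE, in which Dnmt1 was deleted, at 20 to 21 weeks. ALK samples were T-cell lymphoma cells of mice labelled NPM-ALK+, at 22 to 31 weeks, and no floxed allele is named for them. ALKKO thymocytes were from mice labelled NPM-ALK+, DNMT1 fl/fl CD4-CRE, at 19 to 25 weeks. The NPM-ALK transgene, a human fusion kinase, was driven by Cd4 regulatory elements, and so was the Cre that deletes Dnmt1. Each is thus limited to cells that use the Cd4 elements of its construct. The paper places the deletion at the double-positive thymocyte stage, and it reports NPM-ALK also in double-negative thymocytes of tumor-free mice. ALK tissue was tumor while the other 3 groups were thymus, so tumor state and genotype cannot be told apart in any comparison with ALK.

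GIMAP proteins are small GTP-binding proteins that sit on internal membranes, and they are known mainly from lymphocytes, where several are needed for survival of mature T and B cells. Their genes form a tight cluster, and thymocytes raise several of them as they mature. Gimap5 acts at lysosomal membranes and its loss causes lymphopenia in rodents. Gimap3 is its closest relative in the mouse. Gimap6 binds an ATG8-family protein of the autophagy machinery, Gimap4 has been linked to the timing of T-cell death, Gimap1 is needed for mature lymphocytes, and Gimap8 is the longest protein of the family. Endothelial cells express GIMAP genes as well. Dnmt1 is the maintenance DNA methyltransferase, which copies methylation at CpG dinucleotides to the new strand after replication.

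The 8 genes lie within 123.6 kb of chromosome 6 (GRCm38, GENCODE M21). From the left end, Gimap8 is at chr6:48647234-48660875, Gimap9 at chr6:48676129-48679114, Gimap4 at chr6:48684549-48692060, Gimap6 at chr6:48701582-48708225, Gimap7 at chr6:48718621-48724636, Gimap1 at chr6:48739054-48743795, Gimap5 at chr6:48746197-48754210 and Gimap3 at chr6:48764464-48770851. Gimap6 and Gimap3 are on the minus strand and the others on the plus strand. Since the groups differ in Dnmt1, the 250 bases before the RefSeq start (GRCm38.p6) are shown 5′ to 3′ on the gene's strand for the genes that the results turn on, with CpG dinucleotides in capitals. Gimap3 and Gimap6 were called lower in ALK, Gimap4 and Gimap8 differed most between tumors, and Gimap9 had the most CpGs. The windows are chr6:48770852-48771101 on the minus strand for Gimap3, chr6:48708245-48708494 on the minus strand for Gimap6, chr6:48684328-48684577 on the plus strand for Gimap4, chr6:48646984-48647233 on the plus strand for the first of the starts of Gimap8, and chr6:48675885-48676134 on the plus strand for Gimap9.
Gimap3: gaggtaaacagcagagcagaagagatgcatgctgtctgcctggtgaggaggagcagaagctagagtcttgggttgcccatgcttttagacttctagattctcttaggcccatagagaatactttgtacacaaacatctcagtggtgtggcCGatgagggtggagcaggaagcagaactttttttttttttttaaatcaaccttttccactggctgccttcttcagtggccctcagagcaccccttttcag
Gimap6: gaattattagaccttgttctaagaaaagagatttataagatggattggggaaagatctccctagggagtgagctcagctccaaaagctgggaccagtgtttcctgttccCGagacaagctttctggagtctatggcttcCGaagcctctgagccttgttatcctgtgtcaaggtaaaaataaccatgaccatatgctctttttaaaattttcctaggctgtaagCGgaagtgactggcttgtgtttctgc
Gimap4: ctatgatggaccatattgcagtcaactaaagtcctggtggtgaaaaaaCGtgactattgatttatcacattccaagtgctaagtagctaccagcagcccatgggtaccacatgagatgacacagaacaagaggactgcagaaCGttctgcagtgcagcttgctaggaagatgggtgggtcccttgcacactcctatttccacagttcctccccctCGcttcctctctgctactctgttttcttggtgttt
Gimap8: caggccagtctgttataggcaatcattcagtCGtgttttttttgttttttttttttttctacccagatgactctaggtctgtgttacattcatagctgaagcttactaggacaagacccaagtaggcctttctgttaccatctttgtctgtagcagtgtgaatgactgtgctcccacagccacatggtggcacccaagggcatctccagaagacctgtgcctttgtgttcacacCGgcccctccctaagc
Gimap9: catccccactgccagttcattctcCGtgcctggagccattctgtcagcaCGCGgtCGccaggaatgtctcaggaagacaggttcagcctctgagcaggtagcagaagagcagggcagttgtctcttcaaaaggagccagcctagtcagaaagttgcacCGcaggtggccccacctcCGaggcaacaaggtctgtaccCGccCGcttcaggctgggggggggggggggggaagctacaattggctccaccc

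Gimap3 had 1 CpG, Gimap8 had 2, Gimap4 and Gimap6 had 3 each and Gimap9 had 8, and of the members not shown Gimap7 had 2 and Gimap1 and Gimap5 had 3. Over 32851 RefSeq promoters the median was 6, and 37.8% held at most 3. Methylation was not analysed here. Motifs were searched on both strands. The RUNX letters TGTGGT were in the windows of Gimap1, Gimap4 and Gimap7 and in 14.05% of all promoters. The ETS letters GGAAGT were in those of Gimap5, at 2 places, and Gimap6, and in 19.7% of all promoters. The STAT letters TTCNNNGAA were in the Gimap6 window, which reads TTCTAAGAA there, and in the window of the second start of Gimap8, and in 7.02% of all promoters. The GATA letters GATAAG, the KLF letters CCACACCC and the RBPJ letters TGGGAA were in no member's window, against 6.55%, 3.20% and 21.6% of all promoters. A match or its absence in this window says nothing of binding.

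Gimap1 and Gimap7 had a count of 0 in all 12 libraries, which is no measurement of absence. Both genes lie wholly inside the body of Gm28053, an annotated readthrough gene on the same strand, at chr6:48718607-48752644. Of the protein-coding genes that lie wholly inside same-strand gene bodies, 420 of 425 (98.8%) were at 0 in every library, while 150 of 717 (20.9%) of those inside opposite-strand bodies and 2384 of 12155 (19.6%) of those that overlap no other gene were. Reads in a stretch shared by gene bodies of 1 strand thus appear to be in neither gene's count. Gimap1 and Gimap7 had 0 bases of exon outside Gm28053. Gimap5 had 1566 of 4149 exon bases outside it (37.7%), so its counts cover only its 3′ end. Gimap3 and Gimap5 also share sequence. Of the 50-base windows of Gimap3 transcripts, 206 of 2528 (8.15%) recur in other transcripts, Gimap5 among them, and 190 of 4195 (4.53%) of those of Gimap5 recur in Gimap3, and a read that aligns to several places is in no count. The other members had under 0.2% of such windows, apart from Gimap1 with 1.57%.

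Libraries held 12473857 to 18864327 reads counted on genes (median 15262212), and values are given as normalised CPM, counts scaled to a common library size after TMM normalization. A floor of 3 counts is 0.159 to 0.240 CPM. Alk was at 34.8 to 54.9 CPM in the 6 transgenic libraries and at 0.107 to 0.431 CPM in the others. These reads were counted on the mouse Alk gene while the transgene is human, so they are only a proxy for its RNA level. Dnmt1 ranged over 399 to 486 CPM in Ctrl, 206 to 243 in KO, 205 to 244 in ALKKO and 378 to 787 in ALK. The second KO library, from the only female mouse, stood apart. The 6 B-cell markers summed to 2193 CPM there and to 53.2 to 100.4 CPM in the other thymus libraries, and the 8 T-cell markers to 2420 CPM against 3978 to 5727 CPM. Its 7 endothelial markers summed to 527 CPM against 183 to 305 CPM, and its 7 myeloid markers to 2231 CPM against 412 to 618 CPM. Its 4 NK-cell markers summed to 55.97 CPM against 6.53 to 17.04 CPM, its 8 double-positive thymocyte markers to 2664 CPM against 6397 to 8556 CPM and its 6 markers of thymic epithelium to 124 CPM against 727 to 1129 CPM. In the tumors, T-cell markers summed to 2203 to 3037 CPM, the 8 markers of double-positive thymocytes to 1584 to 3461 CPM against 7401 to 8556 CPM in Ctrl, B-cell markers to 5.84 to 16.3 CPM and endothelial markers to 186 to 291 CPM. Their 5 fibroblast markers summed to 909 to 2371 CPM against 187 to 330 CPM in Ctrl, their markers of thymic epithelium to 29.9 to 199 CPM against 1052 to 1129 CPM, their NK-cell markers to 0.610 to 1.72 CPM against 10.98 to 17.04 CPM and their myeloid markers to 203 to 791 CPM against 412 to 503 CPM. The part of these cell types in the GIMAP differences was not tested. The third ALK tumor had 298 CPM of Trac, the constant gene of the T-cell receptor alpha chain, where the others had 5.84 and 6.54 CPM and Ctrl 375 to 515 CPM. Cd3d, which encodes a CD3 chain of the same receptor, was instead highest in the first tumor, with 212, 2.27 and 13.5 CPM in the first, the second and the third tumor and 391 to 467 CPM in Ctrl. Cd5 was at 0.785 to 2.21 CPM in all 3 tumors and at 230 to 275 CPM in Ctrl. The markers Rag1 and Itgam were at 0 in every library, and both lie almost wholly inside another gene body on their own strand.

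In Ctrl thymocytes the order of the members was read on the scale of CPM per kb of countable exon. Gimap9 was at 78.4 to 96.2 CPM per kb and Gimap6 at 70.7 to 86.2, and their mice overlapped. Gimap4 followed at 51.1 to 70.8 CPM per kb and met the lowest mouse of Gimap6. Gimap3, at 34.5 to 52.0, and Gimap8, at 36.9 to 46.2 CPM per kb, could not be told apart. Gimap5 was the lowest of the 6, at 9.30 to 9.66 CPM per kb, well below every other member. Its value rests on the 1566 of 4149 exon bases at its 3′ end that could be counted. The other members were countable over all their exons, so the low rank of Gimap5 is no measure of a lower RNA level. The same order of Gimap5 below all others held in each of the 9 thymus libraries.

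The first question was how the family differed between NPM-ALK tumors and control thymocytes. Gimap3 and Gimap6 were lower in every tumor. Gimap4 and Gimap8 were below all controls in the first and second tumors and above them in the third. Gimap5 was split in the same directions by less. For Gimap9 only the first tumor was below the controls, and the others lay within their range. A gene was called where edgeR's quasi-likelihood test, adjusted for 16052 genes by the method of Benjamini and Hochberg, gave p under 0.05 and the log2 fold change exceeded 1 in size. Of the 6 members 2 were called lower and 0 higher. Of all genes tested 20.4% were called, and 12% were called lower. The median log2 fold change was −0.55 over the 6 members and 0.05 over all genes.

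**Figure D1:**
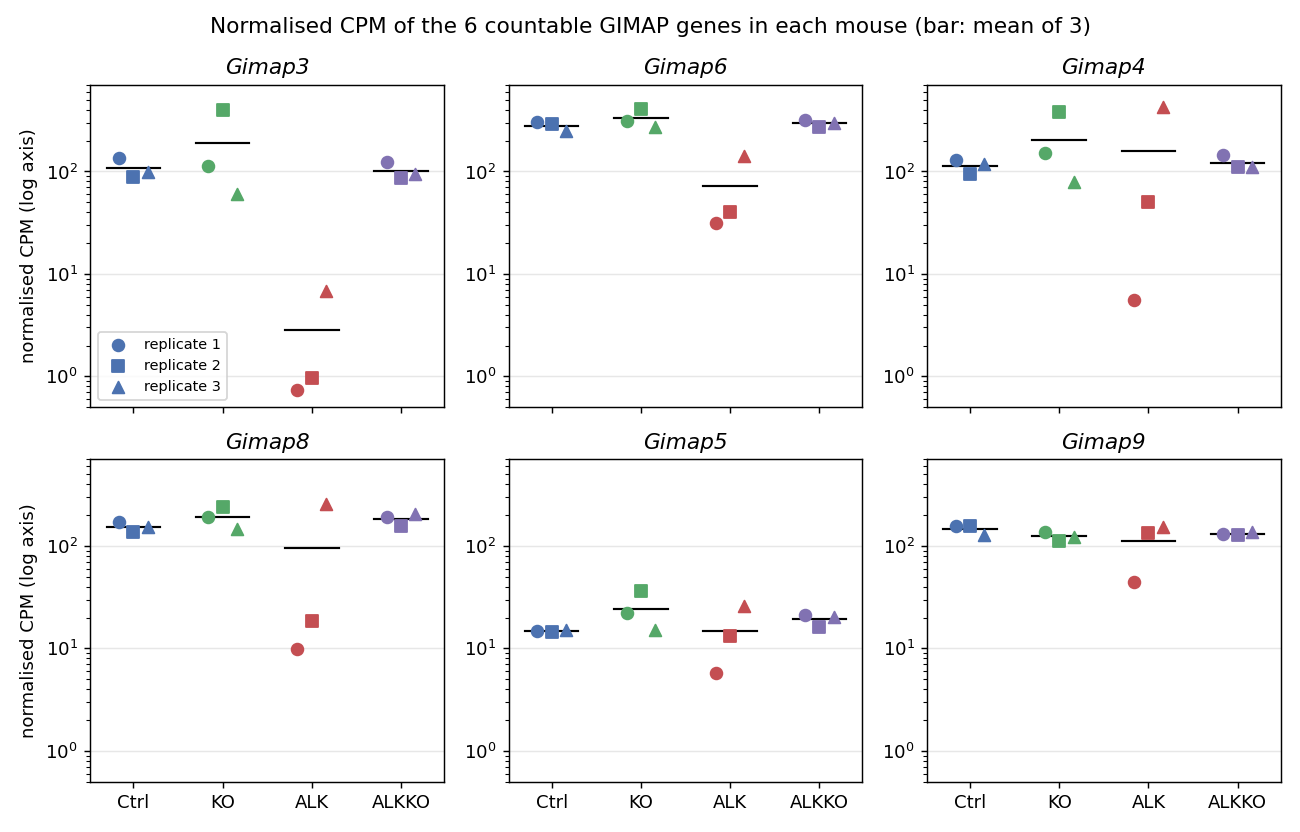
Normalised CPM on a log axis for the 6 GIMAP genes with counted reads, by group, with 1 point per mouse (shape gives the replicate number) and a bar at the mean of 3 mice. Gimap3 and Gimap6 sit below all Ctrl mice in the 3 ALK tumors, while Gimap4 spans 5.5 to 425 CPM among the tumors.

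Ctrl mice had 134, 89.0 and 99.0 CPM of Gimap3, and the ALK tumors had 0.738, 0.959 and 6.79 CPM, from 11, 11 and 87 reads. All tumors lay below all controls, as in 25.1% of all genes tested, and even the highest tumor was far under the lowest Ctrl mouse. The fold was 37.9 (log2 fold change −5.25, SE 0.924, adjusted p = 0.00297 by edgeR). The call held in each of 20 alternative settings, with log2 fold changes from −7.00 without the third tumor to −4.78 without the first.

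Gimap6 had 301, 291 and 247 CPM in Ctrl and 31.5, 40.4 and 143 CPM in the tumors. The tumors again lay below all controls, with the third tumor closest to them. Gimap6 was 3.91-fold lower (log2 fold change −1.97, SE 0.472, adjusted p = 0.0120 by edgeR). With only ALK and Ctrl in the fit the adjusted p was 0.0543, and without the third tumor the log2 fold change was −2.97.

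Gimap4 had 130, 93.9 and 117 CPM in Ctrl and 5.5, 50.1 and 425 CPM in the tumors. The first and second tumors lay below every control and the third above every other library. The highest tumor was 77.2 times the lowest. Among 10293 genes averaging 10 CPM or more with no tumor at 0, the median of this ratio was 1.59 and 1.02% had a ratio at least as high. The log2 fold change was 0.49 (SE 1.06, adjusted p = 0.754 by edgeR), with a 95% interval from −1.84 to 2.83. Without the third tumor it was −2.05 (adjusted p = 0.0916) and without the first 1.06 (adjusted p = 0.319), so the sign rested on which tumor was in the fit.

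Gimap8 had 171, 136 and 153 CPM in Ctrl and 9.79, 18.7 and 258 CPM in the tumors. Its tumors were split like those of Gimap4, with a ratio of 26.3 between the highest and the lowest, and 2.29% of the same genes had a ratio at least as high. The log2 fold change was −0.68 (SE 0.895, adjusted p = 0.593 by edgeR, 95% interval −2.66 to 1.30). Without the third tumor it was −3.45 and passed the thresholds (adjusted p = 0.000227), and without the first or the second it was −0.15 or −0.22 (adjusted p = 0.894 and 0.880). The third tumor was also the sample with high Trac and the oldest mouse, at 31 weeks against 24 and 22. All other mice were 19 to 25 weeks old, so an age term leans most on this tumor. A fit with age is thus no check independent of leaving this tumor out. With age as a covariate the log2 fold change of Gimap8 was −2.90 (adjusted p = 0.0530) and with the replicate block −1.35 (adjusted p = 0.356). The part of Trac-expressing cells in the Gimap4 and Gimap8 levels of this tumor was not tested.

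Gimap9 had 158, 156 and 129 CPM in Ctrl and 44.9, 135 and 152 CPM in the tumors. Only the first tumor lay below the controls, and the log2 fold change of −0.42 (SE 0.340, adjusted p = 0.381 by edgeR) had a 95% interval from −1.17 to 0.34. Gimap5 had 14.8, 14.6 and 15.1 CPM in Ctrl and 5.70, 13.1 and 25.9 CPM in the tumors. The controls were nearly equal and the tumors spread around them, and the log2 fold change was 0.01 (SE 0.468, adjusted p = 0.995 by edgeR, 95% interval −1.03 to 1.04). Thus for the 4 members without a call the interval reached a fold of more than 2 in at least 1 direction.

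The make-up of the family differed between tumors. Of the summed CPM per kb of the 6 genes, Gimap9 made up 25.9% to 30.7% in Ctrl, 59.5% and 61.0% in the first and second tumors and 20.4% in the third. Gimap4 made up 16.5% to 21.1% in Ctrl and 51.0% in the third tumor. Gimap3 made up 11.1% to 14.4% in Ctrl and 0.276% to 0.624% in the tumors, the smallest share of a member in each tumor. The summed CPM of the 6 genes was 909, 781 and 760 in Ctrl, 98.1, 259 and 1010.1 in ALK, 930.1, 1575 and 697 in KO and 929, 771 and 864 in ALKKO. The summed level of the third tumor was thus above all Ctrl mice, and those of the others below. In bulk RNA, fewer cells of a type and less RNA per cell cannot be told apart.

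The second question was what Dnmt1 deletion did to the family in thymocytes without the transgene. In KO against Ctrl, 0 of the 6 members were called by edgeR, beside 0.0187% of all genes, 0 had an unadjusted p under 0.05 (886 of all genes did), and 0 were called by DESeq2's Wald test. The deleted gene itself was not called by edgeR. Dnmt1 had a log2 fold change of −0.95 (adjusted p = 0.787) here and −0.99 (adjusted p = 0.259) in ALKKO against Ctrl. Every KO and ALKKO mouse was nevertheless below every Ctrl mouse for Dnmt1. Gimap3 had 114, 394 and 60.7 CPM in KO, so that the second library was above and the third below all controls. The log2 fold change of 0.82 (SE 0.754, adjusted p = 0.913) went to −0.29 without the second library. Gimap4 had 151, 380 and 79.8 CPM in KO, a log2 difference of 0.84 (SE 1.06, adjusted p = 0.940) that went to 0.02 without that library. In both genes the high value came from the library that stood apart in its B-cell, myeloid, NK-cell, endothelial, thymocyte and epithelial markers. The part of these cell types in the high values was not tested. Gimap5 had 22.0, 36.0 and 15.3 CPM, with every KO mouse above every Ctrl mouse, as in 6.19% of all genes, and its log2 fold change was 0.72 (SE 0.469, adjusted p = 0.875, 95% interval −0.32 to 1.76). Gimap6 had 314, 411 and 272 CPM, Gimap8 had 192, 242 and 147 CPM and Gimap9 had 137, 112 and 123 CPM in KO, with log2 fold changes of 0.25, 0.34 and −0.25 and adjusted p-values of 0.966, 0.971 and 0.943. The second library was the highest KO mouse for 5 of the 6 members and the lowest for Gimap9.

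The third question was whether thymocytes with both the transgene and the deletion kept control levels. Their CPM was close to that of Ctrl for each member, with wide intervals. In ALKKO against Ctrl 0 of 6 members were called, beside 0.181% of all genes, and in ALKKO against KO 0 of 6, beside 0.00623%. In both comparisons 0 members had an unadjusted p under 0.05 by edgeR (510 and 432 of all genes did), and 0 were called by DESeq2. The spread in these fits is estimated with the tumors and the second KO library included. With only ALKKO and Ctrl in the fit, the SEs of Gimap3, Gimap4 and Gimap8 were 0.195, 0.155 and 0.127, against 0.750, 1.05 and 0.890. Gimap5 then had an unadjusted p of 0.0475 by edgeR (adjusted p = 0.402). Gimap3 had 125, 86.1 and 94.0 CPM in ALKKO, a log2 fold change over Ctrl of −0.08 with a 95% interval from −1.74 to 1.58. Gimap6 had 315, 272 and 296 CPM, 0.07 on the log2 scale over Ctrl with an interval from −0.93 to 1.08. Gimap4 had 145, 110.2 and 111 CPM, Gimap8 had 193, 158 and 206 CPM and Gimap9 had 130, 129 and 137 CPM, each overlapping the controls. The 95% intervals over Ctrl were −2.23 to 2.44 for Gimap4 and −1.70 to 2.24 for Gimap8. Gimap5 had 21.1, 16.1 and 20.4 CPM, above every Ctrl mouse as in 9.92% of all genes, 0.37 on the log2 scale (SE 0.468, adjusted p = 0.9998). Among the ALKKO mice the highest value was at most 1.45 times the lowest for each member. The median log2 fold change of the members was 0.53 in KO against Ctrl, 0.09 in ALKKO against Ctrl and −0.26 in ALKKO against KO, where the medians of all genes were 0.04, 0.01 and −0.02.

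**Figure D2:**
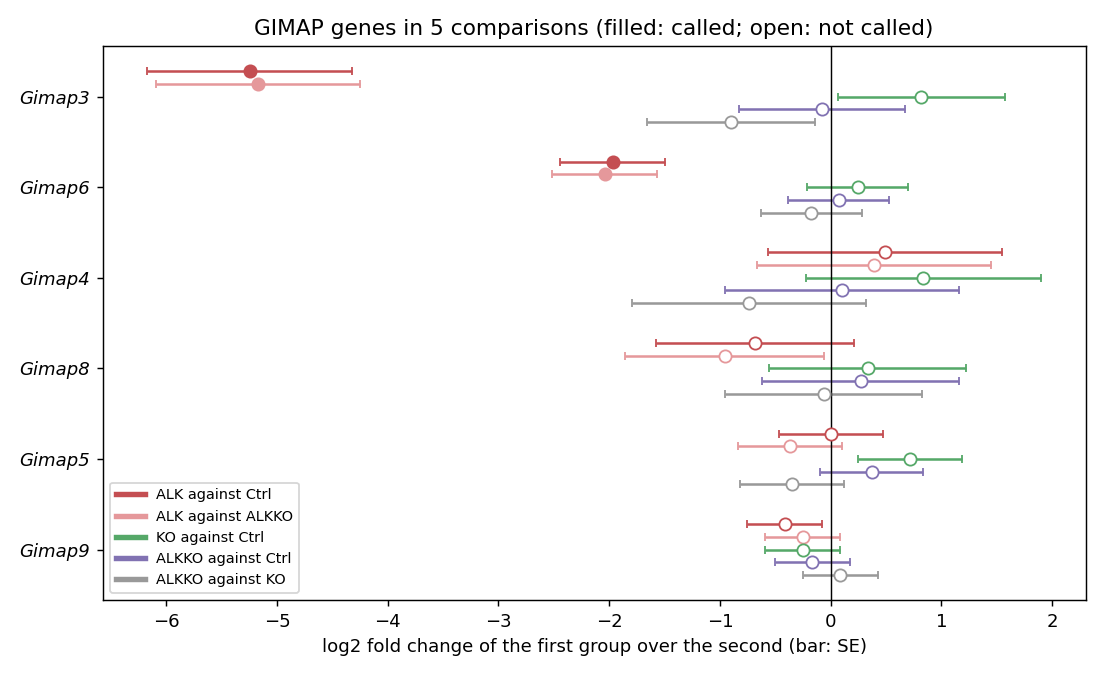
Log2 fold changes of the 6 GIMAP genes in 5 comparisons, with bars of 1 SE, filled points for called genes and open points for genes that were not called. The 4 filled points are Gimap3 (−5.25 and −5.17) and Gimap6 (−1.97 and −2.04) in ALK against Ctrl and ALK against ALKKO.

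Tumors were also set against the ALKKO thymocytes, which carry the transgene and had a like level of reads on mouse Alk. In ALK against ALKKO, 2 of 6 members were called, both lower, beside 19.6% of all genes called and 12.6% called lower. Gimap3 was 35.9-fold lower in the tumors (log2 fold change −5.17, SE 0.921, adjusted p = 0.00331 by edgeR) and Gimap6 was 4.12-fold lower (log2 fold change −2.04, SE 0.473, adjusted p = 0.0107 by edgeR). For both, every tumor lay below every ALKKO mouse, as in 23.7% of all genes. With only these groups in the fit Gimap6 was not called (adjusted p = 0.0588). Gimap8 had a log2 fold change of −0.96 (adjusted p = 0.453) and −3.71 without the third tumor (adjusted p = 0.000165), and with age as a covariate it was −3.37 (adjusted p = 0.0397). The age term leans most on the third tumor, so these fits are not separate checks. Gimap4 had 0.39 (adjusted p = 0.810), Gimap5 −0.37 (adjusted p = 0.590) and Gimap9 −0.25 (adjusted p = 0.612). The comparisons with Ctrl and with ALKKO share the same 3 tumors, so that they are not independent of each other.

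The difference of the transgene's effect with and without the deletion, ALKKO against KO less ALK against Ctrl, was tested as an interaction term. Of the 6 members 1 was called, beside 8.93% of all genes. Gimap3 differed by 4.35 on the log2 scale (SE 1.14, adjusted p = 0.0386 by edgeR), with −0.90 in ALKKO against KO and −5.25 in ALK against Ctrl. This call was lost in 11 of 19 alternative settings, with adjusted p-values up to 0.0931, among them the fits without any 1 of the Ctrl mice, any 1 of the ALKKO mice, the first or the third KO mouse, or the second tumor. The difference ranged from 3.85 without the first tumor to 6.11 without the third. Without the second KO library it was 5.49, where Gimap3 in ALKKO against KO was at 0.22. The difference for Gimap6 was 1.79 (SE 0.649, adjusted p = 0.106) and that for Gimap8 0.62 (adjusted p = 0.789), and without the third tumor they were 2.81 and 3.39 and passed the thresholds (adjusted p = 0.000456 and 0.00135). For Gimap4, Gimap5 and Gimap9 it was −1.23, −0.35 and 0.50, with adjusted p-values of 0.637, 0.772 and 0.537.

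Within 200 kb on either side of the cluster 32 other genes are annotated, of which 14 were tested. In ALK against Ctrl 4 were called lower and 0 higher, beside 12% of all genes called lower and 20.4% called. They were Sspo (log2 fold change −5.83, adjusted p = 0.00128), Aoc1, which encodes a diamine oxidase (−4.20, adjusted p = 0.0106), Rarres2, which encodes the chemoattractant chemerin (−3.32, adjusted p = 0.0471), and the pseudogene Zfp862-ps (−1.56, adjusted p = 0.0134), all by edgeR. In the 3 tumors Sspo had 9, 0 and 1 reads and Aoc1 had 0, 2 and 3 reads, so the sizes of both folds rest on very few reads. Rarres2 lost its call in 12 alternative settings, and in Ctrl its 3 mice spread from 18.4 to 59.3 CPM. Zfp862-ps lost its call without the third Ctrl mouse (−1.27, adjusted p = 0.0542). Between these genes and the GIMAP cluster lay others that were not called. The membrane protein genes Tmem176a and Tmem176b, between Gimap3 and Aoc1, had 39.5 to 84.0 and 56.96 to 134 CPM in the tumors and 45.5 to 59.4 and 109 to 121 CPM in Ctrl, with log2 fold changes of 0.08 and −0.35 (adjusted p = 0.883 and 0.421). In KO and ALKKO against Ctrl and in ALKKO against KO 0 neighbours were called by edgeR.

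**Figure D3:**
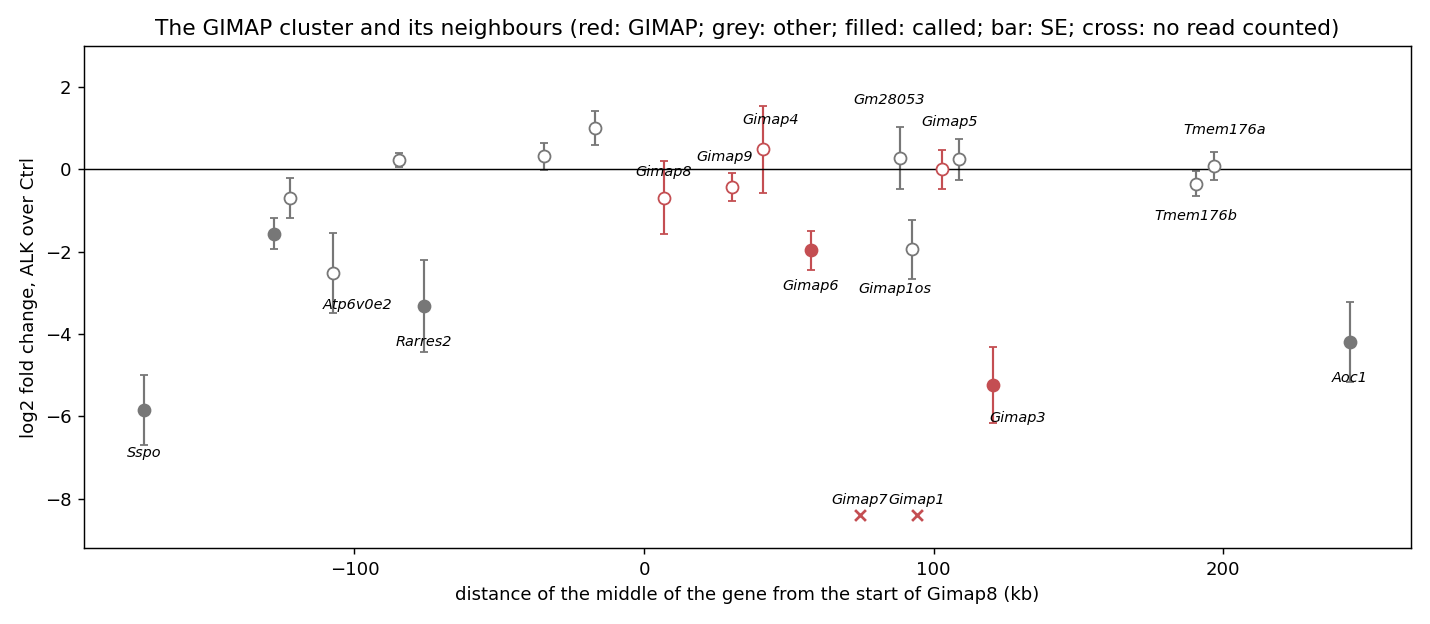
Log2 fold change of ALK over Ctrl (bars of 1 SE) against the distance of each gene's middle from the start of Gimap8 in kb, for the 6 GIMAP genes (red) and 14 neighbours (grey) that were tested, with filled points for called genes. Gimap3 and Gimap6 and 4 neighbours are filled, and crosses mark Gimap7 and Gimap1, on which no read was counted.

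Inside the cluster, the noncoding gene Gimap1os runs on the strand opposite Gimap1 and was counted, with 23.5, 20.3 and 19.1 CPM in Ctrl and 0.738, 2.96 and 12.7 CPM in the tumors. All tumors lay below all controls, as in 25.1% of all genes tested. The log2 fold change of −1.94 (SE 0.717) missed the threshold (adjusted p = 0.0646 by edgeR), while DESeq2's Wald test called it (adjusted p = 0.0150). It was −3.53 and called without the third tumor (adjusted p = 0.00155), −1.42 without the first (adjusted p = 0.0510) and −3.09 and called with age as a covariate (adjusted p = 0.0163). Here too the age term leans most on the third tumor. The readthrough gene Gm28053, of which 557 of 989 exon bases lie outside the genes it spans, had 3.32, 1.93 and 2.05 CPM in Ctrl and 0.738, 1.13 and 6.95 CPM in the tumors. In both genes the third tumor was the highest, as for each of the 6 GIMAP genes counted.

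Genes outside the family were ranked by how close their profile over the 12 libraries was to the mean centred log2 CPM profile of the 6 members, as the root mean square difference. The closest among 16050 symbols were Amz1, a metallopeptidase gene (0.156), Cadm1, a cell adhesion gene (0.308), Lfng, which encodes a glycosyltransferase that modifies Notch receptors (0.308), Glipr1 (0.317) and the zinc finger gene Zfp467 (0.324). Of the members themselves Gimap6 was at 0.304, Gimap8 at 0.395, Gimap4 at 0.729, Gimap5 at 0.755, Gimap9 at 0.926 and Gimap3 at 1.67, so that Gimap3 was the least like the mean of its own family. Each member is itself part of that mean. Amz1 had 16.6, 12.1 and 13.1 CPM in Ctrl and 1.07, 3.31 and 11.01 CPM in the tumors, and Lfng had 47.9, 35.1 and 46.7 CPM in Ctrl and 5.57, 7.15 and 43.2 CPM in the tumors. In both the third tumor was near the controls and the others were low. The second KO library was the highest thymus library for Amz1, Lfng, Cadm1, Glipr1 and Zfp467 alike. Zfp467 lies on the same chromosome and ends 201 kb before Gimap8, while the others are on other chromosomes.

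**Figure D4:**
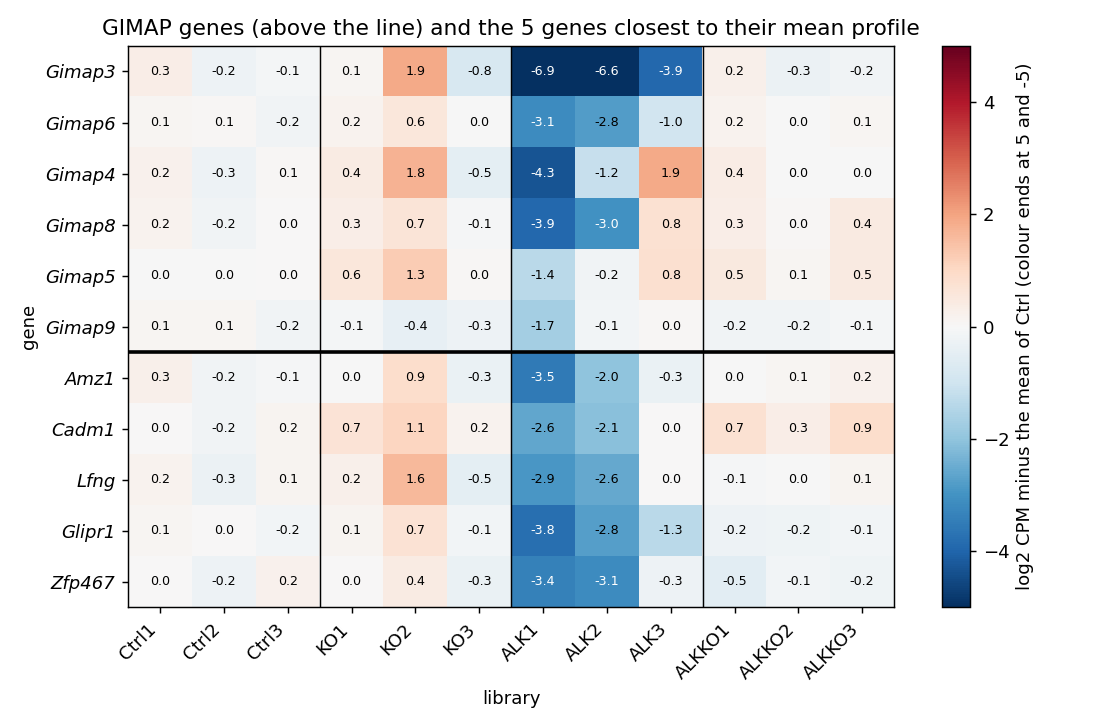
Log2 CPM of each library minus the mean of Ctrl, for the 6 GIMAP genes (above the line) and the 5 other genes closest to their mean profile (below it), with red for higher and blue for lower. The first and second tumors are blue in nearly all genes, while the third is red for Gimap4 and blue for Gimap3.

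Groups of genes with which GIMAP proteins are linked were counted in the same tests. Of 15 genes of thymocyte maturation and egress, all tested, 4 were called lower in ALK against Ctrl and 0 higher, with a median log2 fold change of −0.93 (0.05 over all genes). Of all genes 12% were called lower and 20.4% were called. The 4 were the activation marker Cd69 (−4.64, adjusted p = 8.26e-05), Ms4a4b (−4.24, adjusted p = 0.00739), the surface glycoprotein gene Cd52 (−3.98, adjusted p = 0.00182) and the chromatin organizer Satb1 (−2.35, adjusted p = 0.00135), all by edgeR. Without the third tumor 7 genes of the list were called. Of 13 ATG8 and autophagy genes 12 were tested and 2 were called lower, the ATG8 genes Map1lc3a (−1.60, adjusted p = 0.0171) and Gabarapl1 (−1.17, adjusted p = 0.0263), with a median of −0.35 over the list. Neither passed the thresholds without the second tumor or without the third Ctrl mouse, and 1 of them did without the first or the second Ctrl mouse. Of 8 BCL2 family genes the death effector Bax was called higher (1.07, adjusted p = 0.00458) and the survival gene Bcl2l1 lower (−2.79, adjusted p = 0.000411), with a median of −0.42. Bax had 45.9, 43.9 and 35.8 CPM in Ctrl and 83.1, 113 and 66.9 CPM in the tumors, and it was under the fold threshold in 3 alternative settings, among them the fits without the third Ctrl mouse and without the second tumor. In the last of these only Bcl2l1 of the list was called.

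Of 12 transcription factors of the T lineage, all tested, 2 were called higher and 2 lower, with a median of −0.39. Notch1, the receptor that drives T-lineage commitment, had 224, 218 and 233 CPM in Ctrl and 4081, 1991 and 1083 CPM in the tumors (log2 fold change 3.41, adjusted p = 0.000553). Runx1 ranged over 143 to 172 CPM in Ctrl and 363 to 686 in the tumors (1.82, adjusted p = 0.00107). Runx3, which acts in CD8 lineage choice, was lower (−2.08, adjusted p = 0.0318), as was Ets1 (−1.04, adjusted p = 0.00352), all by edgeR. Runx3 lost its call in 7 alternative settings, among them the fits without any 1 of the Ctrl mice and without the second or the third tumor, and Ets1 fell under the fold threshold without the first. Another family of GTPases, those induced by interferon, had 16 genes listed and 11 tested. Of these, 7 were called lower and 0 higher, with a median of −1.98. Without the first or the second Ctrl mouse or the third tumor 4 were called, and without the third Ctrl mouse 3. Gbp8 had 208, 219 and 238 CPM in Ctrl and 20.3, 3.75 and 4.84 CPM in the tumors (log2 fold change −4.52, adjusted p = 0.000737 by edgeR). Tgtp2 (−2.77, adjusted p = 0.0196), Mx1 (−2.71, adjusted p = 0.0472) and Mx2 (−2.63, adjusted p = 0.0340) were lower as well. Of these, Tgtp2 lost its call in 2, Mx1 in 10 and Mx2 in 5 alternative settings, with adjusted p-values up to 0.0564, 0.128 and 0.104, and the fits without any 1 of the Ctrl mice were among those of Mx1 and Mx2. In ALK against ALKKO, where 12.6% of all genes were called lower and 19.6% were called, the calls were 0 higher and 5 lower of the maturation and egress genes, 0 and 1 of the autophagy genes, 1 and 1 of the BCL2 family, 2 and 1 of the transcription factors and 0 and 9 of the interferon-inducible GTPases. For all 5 lists, 0 genes were called by edgeR in KO against Ctrl, ALKKO against Ctrl and ALKKO against KO.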

How the data were processed

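The authors extracted RNA from homogenized tissue and made stranded poly(A) libraries. Single-end reads were trimmed with Trim Galore and aligned to mm10 with STAR, and the deposited value is the HTSeq count of reads per gene, not normalized (per the paper and the submitters' processing notes, which also name Picard 2.19.2, FastQC and DESeq2). The version of the aligner and of the counter is not given in the sources used here. Of 50600 gene IDs, 50376 matched GENCODE M21 on GRCm38. Reads that fitted several genes made up 2.68% to 5.19% of uniquely aligned reads.

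Tests used edgeR 4.0.16 (R 4.3.3), with TMM (factors 0.913 to 1.06), filterByExpr, 1 term per group over all 12 libraries, robust glmQLFit and glmQLFTest, and Benjamini-Hochberg adjustment over 16052 genes. Called means adjusted p under 0.05 with a log2 fold change over 1 in size. SEs came from the F statistic, and 95% intervals from the SE and the t distribution of the fit. Log2 CPM profiles used a prior count of 2. The script was tested on simulated counts. The alternatives were DESeq2 1.42.0, other size factors, no low-count filter, a minimum of 10 counts in each library, a block for the replicate number, a covariate for sex or for age, a fit of the compared groups alone, and each library left out. Alternatives for the gene lists in ALK against Ctrl were chosen after the data were seen. Groups and replicate numbers came from the labels. Libraries of a group differed by more than sampling noise, with 14.1 to 219 for chi-square over its degrees of freedom. The 95% intervals rest on the SE of the fit, which takes in the spread between libraries of a group as well as counting error. That spread is estimated over all 4 groups, so intervals and p-values of thymus comparisons also carry the spread between tumors. The floors rest on a fixed count and take in no spread between libraries. Reads were counted without molecular identifiers.

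The members and gene lists were chosen with earlier results of these data known. Named genes were all members, all tested neighbours within 200 kb, the 5 genes closest in profile, Dnmt1, Alk, the markers and, of each list, the up to 4 called genes with the largest change in ALK against Ctrl. Promoters were read from RefSeq (GRCm38.p6). Protein sequences were not analysed here. Python 3.11.15 was used for tables and plots.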

Additional observations from a re-analysis of the deposited data

Results flagged for a closer look

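For Gimap3 the effect of NPM-ALK differed between mice with and without the Dnmt1 deletion, by 4.35 on the log2 scale (ALKKO against KO less ALK against Ctrl). It is listed because the interaction term passed the thresholds (adjusted p = 0.0386 by edgeR). The call was lost in 11 of 19 alternative settings, and the difference ranged from 3.85 without the first tumor to 6.11 without the third. The ALK samples were tumors and the ALKKO samples thymocytes, so genotype and tumor state cannot be told apart in this difference.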

How the results depend on the processing

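In KO against Ctrl, ALKKO against Ctrl and ALKKO against KO, 0 members were called in every alternative tried. In ALK against Ctrl and ALK against ALKKO, 1 member was called with only the groups compared in the fit, and 2 to 3 with a library left out. For the interaction, 2 members were called by DESeq2 and with age as a covariate, 0 without the low-count filter and with the replicate block, and 0 to 3 with a library left out. The replicate numbers share only a number: the deviations of same-numbered libraries correlated at −0.11 to 0.43 (median −0.04, 5 of 18 pairs over 0.1), and 5 of 12 libraries correlated best with their own number. With the replicate block Gimap3 and Gimap6 kept their calls in ALK against Ctrl (adjusted p = 0.00918 and 0.0194). Without Gimap6, the summed CPM was 537 in Ctrl and 560.2 in ALKKO.

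Values that were not called and changed sign are given as log2 fold changes. In ALK against Ctrl with age as a covariate Gimap4 was at −1.44, Gimap5 at −0.44, Gm28053 at −1.15, 4833403J16Rik at −0.15 and Tmem176a at −0.21. Gimap5 was at −0.031 by DESeq2 and with its size factors, −0.047 without the low-count filter, −0.084 with at least 10 counts in every library, where Tmem176a was at −0.012, and −0.086 with the replicate block, where Gimap4 was at −0.0095. In ALK against ALKKO Gimap4 was at −0.14 with the replicate block and −1.64 with age. In ALKKO against KO with sex as a covariate Gimap3, Gimap4, Gimap5, Gimap6 and Gimap8 were at 0.22, 0.082, 0.041, 0.0084 and 0.13, and Gimap3 was at −0.30 in KO against Ctrl. The only female was the second KO library, so the sex covariate cannot be told apart from leaving that library out. With age, Gimap3 in ALKKO against Ctrl was at 0.015 and the interaction of Gimap4 at 0.36, and with sex the interaction of Gimap5 was at 0.036.

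With each library left out in turn, the ranges in ALK against Ctrl were −2.05 to 1.06 for Gimap4, −0.68 to 0.39 for Gimap5, −1.39 to 0.73 for Gm28053, −0.22 to 0.63 for 4833403J16Rik, −0.32 to 0.29 for Tmem176a and −0.087 to 0.48 for Zfp775. In ALK against ALKKO they were −2.15 to 0.97 for Gimap4, −1.04 to 0.040 for Gimap5 and −0.56 to 0.14 for Gimap9. In KO against Ctrl Gimap3 ranged from −0.29 to 1.23. In ALKKO against Ctrl the ranges were −0.26 to 0.11 for Gimap3, −0.047 to 0.20 for Gimap4 and −0.015 to 0.12 for Gimap6. In ALKKO against KO they were −1.31 to 0.22 for Gimap3, −1.11 to 0.085 for Gimap4, −0.59 to 0.041 for Gimap5, −0.29 to 0.0086 for Gimap6 and −0.21 to 0.13 for Gimap8. The interaction ranged from −1.81 to 1.32 for Gimap4 and −0.76 to 0.34 for Gimap5. The cause of these changes was not tested, and with 3 mice a group the spread between tumors limits what can be called.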
